A study of Mus musculus with 18 samples.

Results

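The genes of oxidative phosphorylation were described in mouse oocytes at 3 stages, grown in vivo or in vitro. The members were the genes of the TPM table whose symbols begin with Nduf, Uqcr, Cox4 to Cox8 or Atp5, together with Sdha, Sdhb, Sdhc and Sdhd and the mitochondrially encoded protein genes, without symbols marked as pseudogenes. This rule used names only and gave 107 genes of 28252. They comprised 7 core subunits, 31 accessory subunits and 8 assembly factors of complex I, 4 genes of complex II, 8 of complex III, 19 of complex IV, 17 of complex V and 13 genes of the mitochondrial genome. The 8 assembly factors (Ndufaf symbols) build complex I without staying in it, so the set was wider than the subunits alone. The symbols Ndufa11b, Ndufb4c and Cox6c2 also passed the rule although their genes are annotated as processed pseudogenes.

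Complexes I and II of the inner mitochondrial membrane take electrons from NADH and succinate and pass them to ubiquinone, complex III hands them on to cytochrome c, and complex IV reduces oxygen. Complexes I, III and IV pump protons, and complex V (ATP synthase) uses the proton gradient to make ATP. Most subunits are encoded in the nucleus and imported, while a small set is transcribed from mitochondrial DNA, of which the grown oocyte holds more copies than other cells.

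The series held 18 libraries from C57Bl/6j x CBA/J mice in 6 groups of 3. For the primordial and primary stages, oocytes were cut by laser from fixed, paraffin-embedded ovary sections and their RNA was pooled per stage. The in vivo groups came from uncultured ovaries of young mice. The in vitro groups came from ovaries of mice a week younger, cultured for a week in α-MEM with fetal bovine serum, insulin, transferrin, selenium and FSH. Metaphase II (MII) oocytes of the in vivo group were collected from adults superovulated with injected gonadotrophins, HMG and hCG. Those of the in vitro group came from such cultured ovaries of young mice, after follicle culture in alginate and a dose of hCG. Oocytes were pooled in both groups. Donor age and hormone treatment thus differed between the MII groups together with culture, and their effects cannot be told apart. The labels name no mutation or transgene in any group. The 12 microdissected libraries were amplified and enriched for coding exons with a capture kit, whereas the 6 MII libraries were made with Smart-seq II. Since kit and stage changed together, their effects on a level cannot be told apart, and MII values are set beside the earlier stages without a test.

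The microdissected libraries held 15149564 to 29205503 gene counts and the MII libraries 7334817 to 9978830. Of 15 oocyte marker genes, 12 or 13 had more than 3 reads in every library of each group, among them Gdf9, Zp3 and Ddx4. The summed level of the 15 genes was 234 to 1563 CPM (counts scaled to equal library size) in microdissected and 9183 to 16847 CPM in MII libraries. Markers of other ovarian cells were also read in the microdissected libraries. The summed level of 14 granulosa genes was 101 to 3405 CPM, and that of 11 theca and stroma genes was 961 to 34033 CPM. In every microdissected group the median theca and stroma sum (1598 to 2880 CPM) was above the median oocyte sum (419 to 866 CPM). In MII libraries the granulosa sum was 101 to 178 CPM and the theca and stroma sum 2.88 to 14.0 CPM. Of the 14 granulosa genes, 9 had at most 3 reads in every MII in vivo library, and 6 in every MII in vitro library. Amh, Foxl2 and Wt1 were among both, whereas Kitl, Cyp19a1, Gata4 and Nr5a2 had more than 3 reads in all 6 MII libraries. The part of these other cells in the levels below was not tested, and in bulk samples fewer cells of a type and less RNA per cell cannot be told apart.

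Detection of the members varied widely between libraries of a group. Of 94 nuclear members, 65, 69 and 46 had more than 3 reads in the 3 primordial in vivo libraries, and 39, 54 and 56 in the primordial in vitro libraries. The primary in vivo libraries had 32, 76 and 47 and the primary in vitro libraries 77, 68 and 82. In MII oocytes the numbers were 66, 74 and 77 in vivo and 65, 81 and 83 in vitro. Over all genes the primary in vivo library with 32 members also had the fewest genes over 3 reads, 4842 against 5703 to 11710 in the other microdissected libraries.

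**Figure D1:**
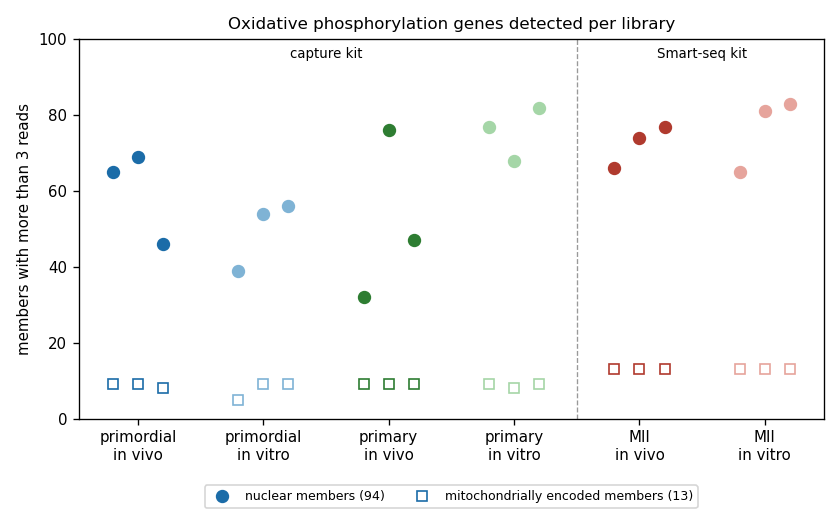
Number of oxidative phosphorylation genes with more than 3 reads (vertical axis) in each library of the 6 groups; filled circles are the 94 nuclear members and open squares the 13 mitochondrially encoded ones. The microdissected libraries held 32 to 82 nuclear members and the MII libraries 65 to 83, and all 13 mitochondrial genes were read only right of the dashed line that separates the kits.

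A short list was read in every microdissected library. Only 14 of the 107 members had more than 3 reads in all 12, namely Sdha, Uqcrc1, Uqcrc2, Uqcrh, Cox5b, Cox7a2l, Atp5a1, Atp5b, Atp5c1, Atp5j and the mitochondrial mt-Co1, mt-Cytb, mt-Nd2 and mt-Nd5. In the 6 MII libraries 65 members passed, 52 of them nuclear. Cox7a1 and the pseudogene Ndufa11b had no read in any library, and Ndufb4c, Cox6c2 and Cox8c did not pass 3 reads in any. Among the 95 members with at least 10 reads in the microdissected set, 39 had more than 3 reads in all 3 primordial in vivo libraries, 28 in primordial in vitro, 34 in primary in vivo and 69 in primary in vitro. For 41 of the 92 members read in primary in vivo oocytes (44.6%), at least 90% of the group's level lay in 1 library, as it did for 56.3% of all genes. In primary in vitro oocytes this held for 6 of 95 members (6.32%) and 27.1% of all genes.

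The mitochondrially encoded genes gave the widest gap between the stages. They took 0.849, 4.44 and 2.86% of all counts in the 3 MII in vivo libraries and 7.69, 1.58 and 1.87% in the MII in vitro libraries. In the microdissected libraries they took 0.000957 to 0.0146%, from 145 to 3417 reads per library. Each of the 13 genes was higher in every MII library than in every microdissected library on the TPM scale, as were 20.2% of all genes compared. The kits differ in the same way as the stages, and the part of each cannot be told apart.

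Within MII oocytes the mitochondrial share differed between growth conditions by less than the spread between libraries. Its mean was 2.72 ± 1.80% in vivo and 3.72 ± 3.45% in vitro (SD, n = 3), a difference of 0.999 percentage points. Without the MII in vitro library at 7.69%, the difference turned to -0.990 percentage points. It was 0.0652 without MII in vivo replicate 1, 1.86 without MII in vivo replicate 2, and 2.07 and 1.92 without MII in vitro replicates 2 and 3. That library was the highest of its group for all 13 mitochondrial genes and the lowest of its group for 64 of 85 nuclear members, while over all genes it was the lowest for 37.7%. The MII in vivo library at 0.849% was the lowest of its group for all 13 mitochondrial genes and for 56 of 83 nuclear members, against 34.8% of all genes.

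**Figure D2:**
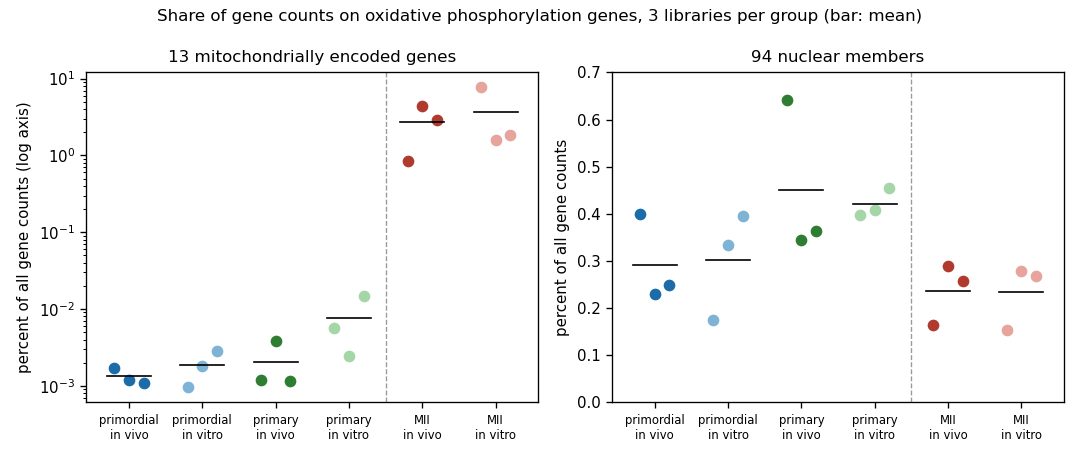
Percent of all gene counts on the 13 mitochondrially encoded members (left, log axis) and on the 94 nuclear members (right, linear axis); each point is a library and each bar a group mean. The mitochondrial share lay between 0.000957 and 0.0146% in microdissected libraries and between 0.849 and 7.69% in MII libraries, and the nuclear share between 0.154 and 0.642% in all of them.

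Cytochrome b, the mitochondrially encoded subunit of complex III, led the group. The mt-Cytb gene (GRCm38 chrM:14145-15288, plus strand) had 45215, 171329 and 141668 reads in the MII in vivo libraries and 367250, 80393 and 94226 in the MII in vitro libraries. It made up 49.8 to 56.6% of the mitochondrial reads of each MII library, and it had 1777 reads over all microdissected libraries. Per kilobase of gene, mt-Atp8 (an ATP synthase subunit) stood beside it, at 810480 reads over the MII libraries against 786784 for mt-Cytb. The genes mt-Atp6 and mt-Nd1 (a subunit of complex I) followed at 230374 and 185441 reads per kilobase. The 3' end of mt-Atp8 overlaps the start of mt-Atp6, so reads there may belong to either.

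At the lower end, 4 mitochondrial genes on the same strand as mt-Cytb had few reads. The MII libraries together had 162 reads on mt-Co2 and 564 on mt-Co3 (catalytic-core subunits of complex IV), and 1127 on mt-Nd4l and 1714 on mt-Nd3 (membrane subunits of complex I). Per kilobase these were 237, 719, 3795 and 4925 reads, whereas the next gene, mt-Nd5, had 32571. The microdissected libraries had 1 read on mt-Nd4l and none on mt-Co2, mt-Co3 or mt-Nd3. All 4 genes have a copy on chromosome 1 that covers 98.99 to 99.87% of their length with at most 1 mismatch. Reads that match several places equally may be dropped or assigned by the counting, and the setting used is not given in the sources used here.

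The first bases of mt-Co3 and mt-Nd3 are shown beside their chromosome 1 copies, Gm28437 and Gm28438, and a stretch of mt-Co1 beside its chromosome 2 copy Gm13340, to show how closely each gene is copied. Bases are lower case, and capitals mark the positions where the gene and its copy differ. Positions are GRCm38: chrM:8607-8666 (plus) and chr1:24613912-24613971 (minus), chrM:9459-9518 (plus) and chr1:24613060-24613119 (minus), and chrM:6005-6064 (plus) and chr2:22588911-22588970 (minus).
mt-Co3: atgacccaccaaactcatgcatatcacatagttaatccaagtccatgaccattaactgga
Gm28437: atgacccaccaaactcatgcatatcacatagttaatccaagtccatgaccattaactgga
mt-Nd3: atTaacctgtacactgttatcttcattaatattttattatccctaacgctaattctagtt
Gm28438: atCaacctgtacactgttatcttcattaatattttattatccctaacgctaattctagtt
mt-Co1: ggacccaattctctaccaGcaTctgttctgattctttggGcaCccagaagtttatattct
Gm13340: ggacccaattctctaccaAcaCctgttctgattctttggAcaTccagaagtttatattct
Over the whole aligned length, mt-Co3 and Gm28437 had 0 mismatches in 783 bases, mt-Nd3 and Gm28438 had 1 in 345, and mt-Co1 and Gm13340 had 37 in 1545. The mt-Co1 gene, the main catalytic subunit of complex IV, had 106782 reads in the MII libraries and 2165 in the microdissected libraries. The gene mt-Atp6 is copied without a mismatch in Gm10925 over 99.6% of its length, and it had 156885 reads in the MII libraries. Its reads followed those of mt-Atp8, which it overlaps, at 8527, 24492 and 19898 against 9547, 25659 and 19779 in MII in vivo and 80749, 11045 and 12174 against 87291, 11034 and 12028 in MII in vitro libraries. How many of them lie in the stretch that both genes share was not tested. The remaining genes mt-Nd2, mt-Nd4, mt-Nd5 and mt-Nd6 had 86793, 52185, 59409 and 18355 reads.

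The nuclear members together took 0.165, 0.289 and 0.257% of all counts in MII in vivo libraries and 0.154, 0.278 and 0.268% in MII in vitro libraries. In the microdissected libraries they took 0.175 to 0.642%. The highest of these, a primary in vivo library, drew 58.8% of its nuclear member reads from the single gene Atp5g1. On the TPM scale 16 of 94 nuclear members were higher in every MII library than in every microdissected library, where 20.2% of all genes were, and 0 were lower in every MII library, against 1.72% of all genes. The 16 included Cox8a, Cox6b2, Cox6a2, Cox7a2, Cox6c, Sdhc, Uqcrc2, Ndufa1, Ndufa10, Ndufaf2 and Ndufaf4. Of the 10 nuclear members with the highest mean TPM, the 2 kits shared 3: Atp5b (the catalytic beta subunit of ATP synthase), Cox5a and Sdha.

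**Figure D3:**
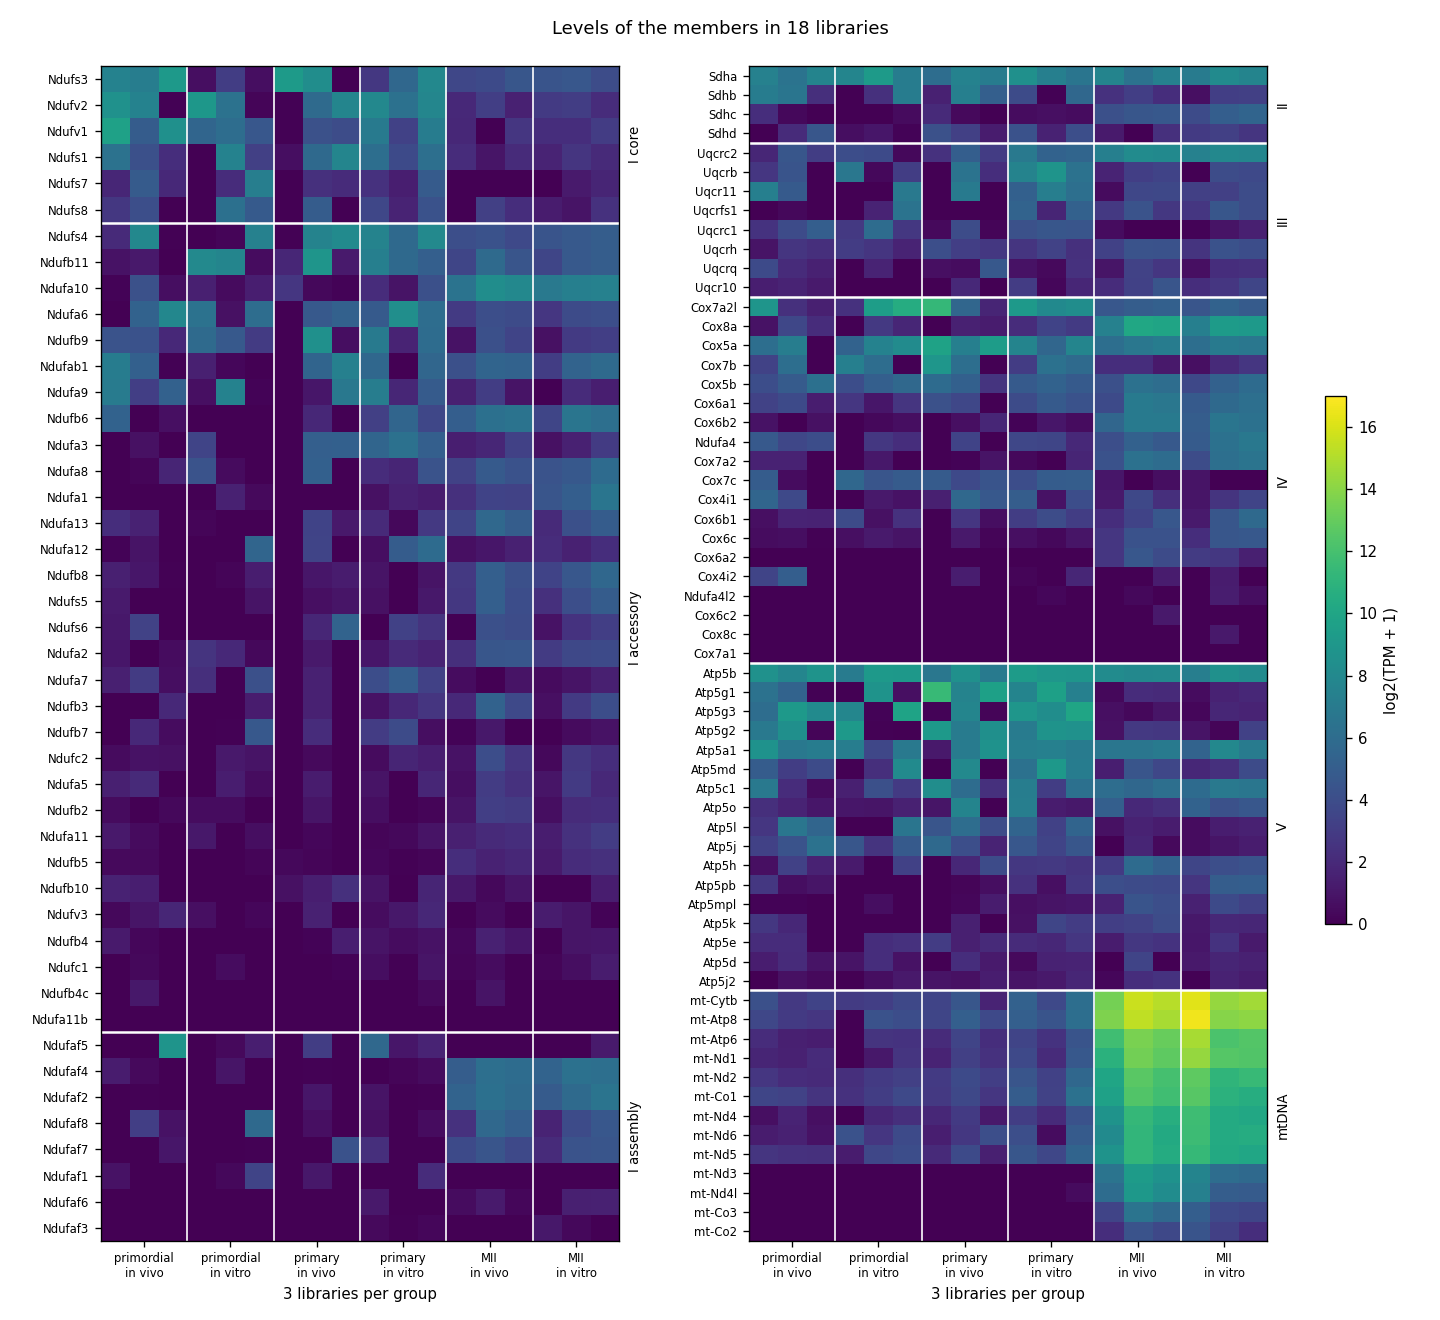
Level of the members (rows, grouped by complex) in the 18 libraries (columns, 3 per group), as log2(TPM + 1). The mitochondrial genes are bright only in the MII columns, and the rows of complexes I to V are patchy across the microdissected columns and more even across the MII columns, with Sdha and Atp5b present in all 18.

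Complex I core subunits, which carry the flavin and iron-sulfur centres, summed to 322 to 2545 TPM in the microdissected libraries and to 25.9 to 51.0 TPM in the MII libraries. Ndufs3, a core subunit of the arm that faces the matrix, shows how uneven the microdissected values were. Its level was 189, 148 and 594 TPM in primordial in vivo, 0.584, 7.49 and 0.571 TPM in primordial in vitro, 627, 326 and 0 TPM in primary in vivo, and 5.78, 49.2 and 247 TPM in primary in vitro libraries. In MII oocytes it led the core, at 11.1, 13.4 and 22.1 TPM in vivo and 20.4, 23.1 and 14.8 TPM in vitro, while Ndufs7 and Ndufs8, iron-sulfur subunits, had the lowest mean levels over the 18 libraries.

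Ndufs7 was at 0 reads in all 3 MII in vivo libraries and at 0, 8 and 13 reads in the MII in vitro libraries. Against the floor of 3 reads per library its MII in vitro level was at least 2.15-fold higher, with an adjusted p of 0.496 by edgeR's quasi-likelihood test. In primordial oocytes it had 31, 344 and 36 reads in vivo and 0, 52 and 1675 in vitro. The groups overlapped, and the difference of 2.38 on the log2 scale turned to -2.46 without the in vitro library at 1675 reads.

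Among the accessory subunits of complex I, Ndufs4 and Ndufb11 had the highest mean levels, and Ndufb4 and Ndufc1 the lowest of those with at least 10 reads. Ndufa10 led the accessory group in MII oocytes, at 88.2, 319 and 243 TPM in vivo and 115, 163 and 174 TPM in vitro, and did not exceed 17.4 TPM in the microdissected libraries. The assembly factors Ndufaf2 and Ndufaf4 were likewise far above the earlier stages: Ndufaf2 was at 27.8 to 93.0 TPM in MII libraries and at 0 to 1.01 TPM in microdissected libraries, and Ndufaf4 at 31.3 to 79.6 against 0 to 1.42 TPM. Ndufaf5 had its highest level, 436 TPM, in a single primordial in vivo library whose 2 companions were at 0. Ndufaf6 and Ndufaf3 had 35 and 19 reads over all 18 libraries.

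Ndufb4 has a copy, the pseudogene Ndufb4c, that matches it over all of the 390 bases of the copy, and the start of its coding sequence is shown beside Cox6c and the copy Cox6c2 since both copies were counted among the members. Positions are GRCm38: chr16:37654300-37654359 and chr15:73809837-73809896 for the former pair, chr15:35937211-35937270 and chr12:56373763-56373822 for the latter, all on the minus strand, and capitals again mark differences.
Ndufb4: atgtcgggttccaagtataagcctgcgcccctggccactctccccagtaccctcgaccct
Ndufb4c: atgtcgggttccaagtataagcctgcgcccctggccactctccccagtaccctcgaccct
Cox6c: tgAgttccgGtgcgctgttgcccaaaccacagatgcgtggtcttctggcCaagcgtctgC
Cox6c2: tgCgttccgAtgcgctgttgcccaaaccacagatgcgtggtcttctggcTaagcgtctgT
Ndufb4 had 42 reads in the microdissected and 20 in the MII libraries, and Ndufb4c 4 and 1. Cox6c and Cox6c2 differed at 7 of 231 aligned bases, and there the gene took 181 and 1123 reads while the copy took 0 and 1. In all, 20 of the 94 nuclear members had a copy of at least 95% identity over at least 50% of a transcript, among them Ndufs3, Ndufb11, Uqcrb, Atp5g1, Atp5g2, Atp5o and Atp5pb, and their counts are uncertain to that extent.

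Complex II, the succinate dehydrogenase that also belongs to the tricarboxylic acid cycle, was led by its flavin subunit Sdha in every group. Sdha was read in all 18 libraries, at 66.4 to 624 TPM in the microdissected libraries, at 202, 83.4 and 168 TPM in MII in vivo and at 133, 282 and 204 TPM in MII in vitro libraries. The iron-sulfur subunit Sdhb ranged from 0 to 161 TPM in the microdissected libraries and from 0.634 to 8.35 TPM in MII libraries. The membrane anchor Sdhc went the other way, with 0 to 3.58 TPM in microdissected and 13.8 to 42.8 TPM in MII libraries, and the anchor Sdhd stayed at or below 22.1 TPM in all.

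In complex III the core protein Uqcrc2 accounted for most of the MII level: it was at 163, 291 and 262 TPM in vivo and 178, 243 and 221 TPM in vitro, about 80.7 and 79.1% of the nuclear members of that complex. In the microdissected libraries it was at 0.304 to 116 TPM, below every MII library. Uqcrb, which binds ubiquinone together with cytochrome b, was at 195, 443 and 85.5 TPM in primary in vitro libraries and at 0, 87.7 and 3.57 TPM in primary in vivo libraries. The small subunits Uqcrq and Uqcr10 had the lowest mean levels.

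Complex IV was led by different genes in the 2 kinds of library. Cox7a2l, which joins complexes III and IV into supercomplexes, made up 41.8 to 69.0% of the complex IV level in the microdissected groups, with single libraries from 1.77 to 2595 TPM. Cox8a, a small structural subunit, led in MII oocytes, at 176, 1125 and 975 TPM in vivo and at 157, 633 and 594 TPM in vitro, and was at 0 to 11.4 TPM in the microdissected libraries. Its in vivo and in vitro libraries overlapped, with a log2 difference of -0.69 ± 0.54 (SE) and an adjusted p of 0.683 by edgeR.

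Several complex IV subunits have paired isoforms, and the pairs were split differently between the kinds of library. Cox6b2, the isoform known from testis, made up 93.1, 92.6 and 84.5% of the summed TPM of Cox6b1 and Cox6b2 in MII in vivo libraries and 95.9, 81.6 and 59.6% in MII in vitro libraries. In the microdissected libraries with any read of the pair, its share ranged from 0 to 81.7%, and 10 of those 11 libraries lay below every MII library. The exception, a primary in vivo library, rested on 0.552 and 2.47 TPM of the 2 genes. The level of Cox6b2 itself was 31.6 to 125 TPM in MII and 0 to 2.47 TPM in the microdissected libraries, and Cox6b1 was at 1.34 to 54.1 and 0 to 14.2 TPM.

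Cox7a2 took 59.8 ± 14.7% of the summed TPM of Cox7a1, Cox7a2 and Cox7a2l in MII in vivo and 60.4 ± 18.6% in MII in vitro oocytes (SD, n = 3), and 0 to 33.3% in the microdissected libraries. Cox6a2, the heart and muscle isoform, was read only in MII oocytes, at 13, 47 and 31 reads in vivo and 19, 14 and 4 reads in vitro, where Cox6a1 remained the larger part at 71.1 to 97.5%. Cox4i2, the isoform described under low oxygen, exceeded 3 reads in 4 microdissected and 2 MII libraries, the highest being 54 and 186 reads in a pair of primordial in vivo libraries. Cox8c had 2 reads in all, and Ndufa4l2 made up at most 2.2% beside Ndufa4. None of these isoform genes was called in any comparison by edgeR or DESeq2, and Cox4i2 had an unadjusted p under 0.05 by edgeR in the primordial culture comparison and in its interaction with stage. Ndufa4 did so in the MII comparison.

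**Figure D4:**
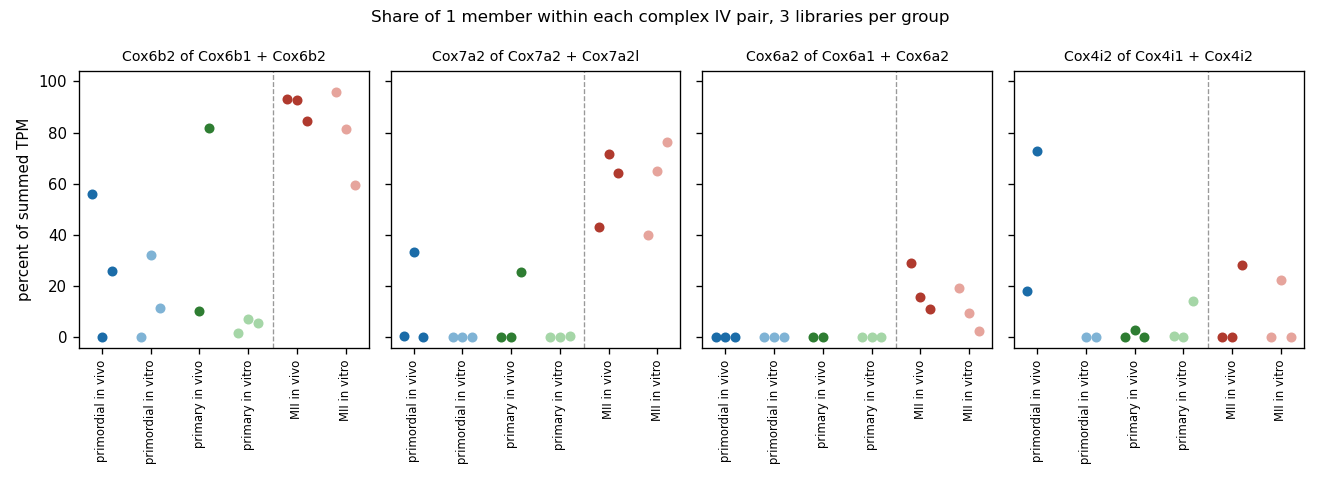
Share of Cox6b2, Cox7a2, Cox6a2 and Cox4i2 in the summed TPM of their isoform family (percent, vertical axis) in each library of the 6 groups; libraries with no read of the family are left out, and the dashed line separates the kits. Cox6b2 was at 59.6 to 95.9% and Cox7a2 at 40.0 to 76.3% in MII libraries, and Cox6a2 was above 0 only there.

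Complex V was led by Atp5b in primordial and MII oocytes. Atp5b was at 105 to 635 TPM in microdissected libraries, at 296, 247 and 251 TPM in MII in vivo libraries and at 156, 371 and 293 TPM in MII in vitro libraries. The membrane ring of ATP synthase is built from an identical mature protein encoded by Atp5g1, Atp5g2 and Atp5g3, and the microdissected libraries differed in which of these they showed. In the 3 primordial in vitro libraries the share of Atp5g1 in the summed TPM was 0, 99.96 and 0.0675%, and that of Atp5g3 27.9, 0.025 and 99.9%. In MII oocytes each of the 3 genes was at or below 8.60 TPM. Atp5d and Atp5j2, small subunits, had the lowest mean levels of the complex.

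In vitro and in vivo oocytes were compared within each stage with edgeR's quasi-likelihood test over all genes with at least 10 reads. These are called culture comparisons, although at MII the groups also differed in donor age and hormone treatment. A gene was called at an adjusted p under 0.05 and a change of at least 2-fold. For primordial oocytes, 0 of 95 members tested were called, where 0.0326% of all genes tested were called. Their smallest adjusted p was 0.359, and 8 had an unadjusted p under 0.05, against 11.7% of all genes. DESeq2 called 3 members, where it called 5.3% of all genes. The median log2 differences, in vitro against in vivo, were 0.02 over the members and 0 over all genes tested, and without primordial in vitro replicate 3 they were -0.80 and -0.66. The summed level of 14 granulosa genes was 101 to 1296 CPM in primordial in vivo and 708 to 3405 CPM in primordial in vitro libraries. Amh exceeded 3 reads in all in vitro and no in vivo libraries, and DESeq2 called it. Foxl2 and Amhr2 did so in all in vivo but not in all in vitro libraries. The part of granulosa RNA in the member values was not tested.

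Ndufs3 had the smallest p of the members in that comparison. It had 2828, 2281 and 9544 reads in primordial in vivo libraries and 6, 139 and 8 in primordial in vitro libraries. The groups did not overlap, and the level was lower in vitro by -6.88 ± 2.90 on the log2 scale (SE, edgeR adjusted p = 0.359, DESeq2 adjusted p = 0.017). Primary oocytes had 9496, 5192 and 0 reads of this gene in vivo and 87, 811 and 4321 in vitro, where the groups overlapped.

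Atp5pb, the b subunit of the stalk that holds ATP synthase in place, had 165, 16 and 28 reads in primordial in vivo libraries and 0 in all 3 primordial in vitro libraries. Its in vitro level was at least 19.3-fold lower against the floor of 3 reads per library (edgeR adjusted p = 0.368, DESeq2 adjusted p = 0.00509). Uqcr10, a small subunit of complex III, had 7, 9 and 6 reads in vivo and 0 in vitro, at least 2.01-fold lower (edgeR adjusted p = 0.446). The third member that DESeq2 called, Ndufb11, had 5, 8 and 0 reads in vivo and 1106, 1679 and 3 in vitro, so that its groups overlapped (edgeR log2 difference 8.06 ± 4.04, SE, adjusted p = 0.416, DESeq2 adjusted p = 0.00244). In total the in vitro libraries lay above all in vivo libraries for 2 members, Cox6c and mt-Nd6, where 2.04% of genes did, and below them for 5, Atp5pb, Ndufa4, Ndufs3, Uqcr10 and Uqcrq, where 4.55% of genes did.

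For primary oocytes, 0 of 95 members were called by edgeR and 0 by DESeq2, where 0% and 1.59% of all genes were called. The smallest adjusted p of a member was 0.440, and 1 member had an unadjusted p under 0.05, against 9.66% of genes. The median log2 difference was 0.64 over the members and 0.44 over all genes, so both sets leaned to the in vitro side, and with scaling to library size alone the medians were 1.04 and 0.72. Both medians rested on single libraries. Without primary in vitro replicate 3 they were 0.066 over the members and 0.0047 over all genes, and without primary in vivo replicate 2 they were 1.85 and 2.34, so that the members then lay below all genes. The in vitro libraries lay above all in vivo libraries for 10 members (Atp5b, Atp5g3, Atp5pb, Cox6b1, Cox8a, Ndufa1, Ndufa7, Ndufb6, Uqcrc2 and Uqcrfs1), where 8.74% of genes did, and below them for 0, where 1.25% did. The summed level of 8 blood genes (4 haemoglobin genes and the leukocyte genes Ptprc, Lyz2, Cd68 and Adgre1, which did not pass 3 reads in any primary in vivo library) was 247 to 2474 CPM in primary in vivo and 0.216 to 31.7 CPM in primary in vitro libraries, and its part in these values was not tested.

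Uqcrfs1, the Rieske iron-sulfur protein of complex III, was the member with an unadjusted p under 0.05. It had 0 reads in all 3 primary in vivo libraries and 396, 24 and 420 in the primary in vitro libraries, at least 58.7-fold higher against the floor (edgeR adjusted p = 0.440). In primordial oocytes it had 0, 3 and 0 reads in vivo and 0, 26 and 769 in vitro, where the groups overlapped (adjusted p = 0.436). In MII oocytes it was at 6.19, 19.4 and 5.85 TPM in vivo and 5.56, 22.1 and 14.4 TPM in vitro, with a log2 difference of 0.40 ± 0.72 (SE, edgeR adjusted p = 0.902).

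Ndufa1, a small membrane subunit of complex I, had 0 reads in primary in vivo and 2, 6 and 5 reads in primary in vitro libraries, which put it at least 1.04-fold higher (edgeR adjusted p = 0.591). Atp5g3 had 2, 3352 and 2 reads in vivo and 7495, 5351 and 17589 in vitro. Its in vitro libraries were all above its in vivo libraries, by 2.92 ± 2.13 on the log2 scale (SE, edgeR adjusted p = 0.690). The 9 mitochondrial genes tested at this stage had log2 differences of 0.66 to 1.97, each smaller than its standard error.

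**Figure D5:**
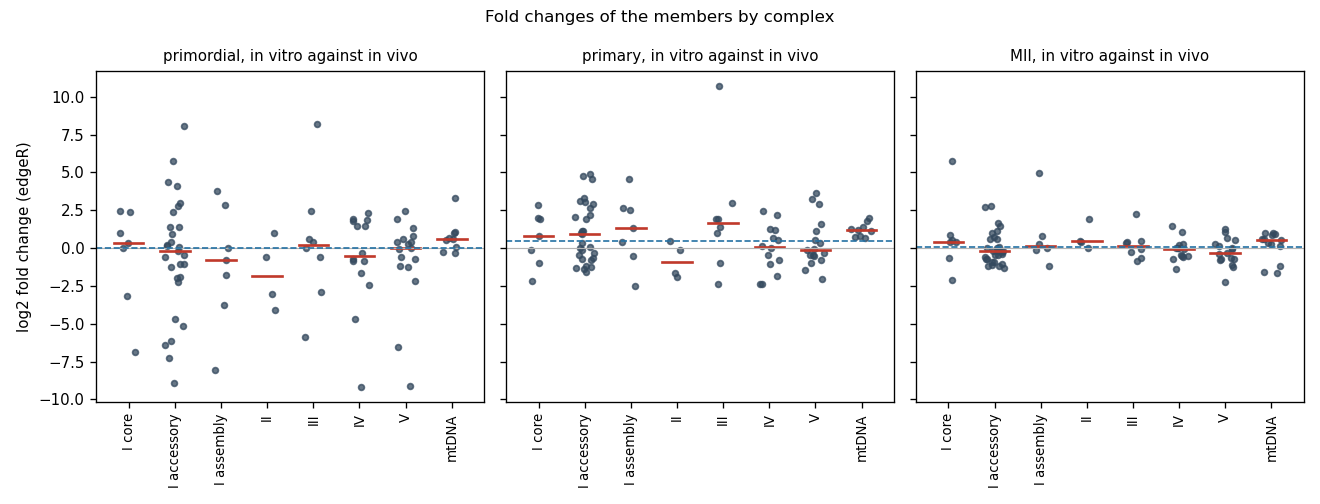
Log2 fold change, in vitro against in vivo (vertical axis, edgeR), of every member tested, by complex, at the primordial, primary and MII stages; red bars are the medians of the complexes and dashed blue lines the medians over all genes tested. The points spread over many log2 units at the primordial and primary stages and less at MII, and values of members at 0 reads in a group depend on the prior count of the fit.

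The difference between the effects of culture at the primary and the primordial stage was tested as an interaction. edgeR called 0 of 95 members, where 0.104% of genes were called, and 5 had an unadjusted p under 0.05, against 11.5% of genes. DESeq2 called 3, Atp5pb, Ndufb6 and Ndufb11, where it called 3.64% of genes. Ndufb6, an accessory subunit, had 181, 0 and 3 reads in primordial in vivo, 0 in all primordial in vitro, 0, 13 and 0 in primary in vivo and 37, 225 and 60 in primary in vitro libraries. Its interaction had an adjusted p of 0.287 by edgeR and 0.0363 by DESeq2.

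Primary and primordial oocytes were also compared within each growth condition. In vivo, edgeR called 0 of 95 members, where 0.0522% of genes were called, 2 had an unadjusted p under 0.05 against 11.2% of genes, and DESeq2 called 2, Ndufv1 and Ndufb11, where it called 3.66% of genes. Atp5g1 had the smallest unadjusted p, 0.00206. It had 2798, 1411 and 2 reads in primordial in vivo and 96255, 6937 and 20020 in primary in vivo libraries, and was higher in primary oocytes by 5.34 ± 1.73 on the log2 scale (SE, edgeR adjusted p = 0.380). Ndufv1, the flavin subunit of complex I, had 14958, 536 and 6714 reads in primordial and 1, 324 and 188 in primary in vivo libraries, a log2 difference of -5.44 ± 2.88 (SE, edgeR adjusted p = 0.457, DESeq2 adjusted p = 0.0218). The primary libraries lay above all primordial libraries for 9 members, where 2.36% of genes did, and below them for 3, where 4.02% did. The summed level of the 8 blood genes was 0 to 76.2 CPM in primordial in vivo and 247 to 2474 CPM in primary in vivo libraries, and its part in these values was not tested.

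In vitro, edgeR called 0 of 95 members and 0% of genes between the same stages, 4 members had an unadjusted p under 0.05 against 10.9% of genes, and DESeq2 called 1, Atp5pb, where it called 2.96% of genes. Atp5pb went from 0 reads in all primordial in vitro libraries to 121, 19 and 193 in primary in vitro libraries, at least 22.8-fold higher against the floor (edgeR adjusted p = 0.385, DESeq2 adjusted p = 0.00908). Primary libraries lay above all primordial libraries for 13 members and below them for 0, where 9.87 and 1.34% of genes did. The median log2 difference was 0.96 over the members and 0.44 over all genes, and with scaling to library size alone 1.31 and 0.81. Without primordial in vitro replicate 3 the medians were 2.05 and 1.54. Without primary in vitro replicate 2 they were 0.62 and 0.20, and without primary in vitro replicate 3 they were 0.62 and 0.02.

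For MII oocytes, the spread between libraries was smaller. The common biological coefficient of variation in edgeR was 0.726, against 2.02 for the microdissected libraries. Of 98 members tested, 0 were called by edgeR and 0 by DESeq2, where 0.35 and 1.97% of all genes were called. The smallest adjusted p of a member was 0.281, and 4 members had an unadjusted p under 0.05, against 10.2% of genes. The median log2 difference was 0.02 over the members and 0.04 over all genes, with 51 of the 98 members above 0. Without MII in vivo replicate 1 a single member was called by edgeR, Atp5o, a peripheral stalk subunit of ATP synthase (log2 difference 3.27, adjusted p = 0.0363), where 2.25% of all genes were called. It had 270, 19 and 30 reads in vivo and 387, 143 and 177 in vitro. The members' median ranged from -0.30 without MII in vitro replicate 3 to 0.31 without MII in vivo replicate 2, where the medians over all genes were -0.0055 and 0.07.

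Ndufa1 had the smallest p. It had 6, 12 and 13 reads in MII in vivo libraries and 38, 49 and 134 in MII in vitro libraries, or 1.17 ± 0.391 and 8.02 ± 6.06 normalised CPM (SD, n = 3). All in vitro libraries were above all in vivo libraries, by 2.77 ± 0.84 on the log2 scale (SE, edgeR adjusted p = 0.281). Ndufa4, a complex IV subunit once assigned to complex I, had 79, 155 and 120 reads in vivo and 168, 382 and 507 in vitro, higher by 1.48 ± 0.49 (SE, edgeR adjusted p = 0.358).

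Of the mitochondrial genes, 10 of 13 had a positive log2 difference in MII oocytes, with a median of 0.53. This direction rested on MII in vitro replicate 1, without which 1 of 13 was positive and the median was -0.73, and without MII in vivo replicate 1 the count was 7 and the median 0.13. mt-Nd3 had the smallest unadjusted p, 0.0394, with a difference of -1.57 ± 0.69 on the log2 scale (SE, edgeR adjusted p = 0.468), and mt-Nd4l and mt-Co3 were the other two with a negative difference, -1.64 ± 0.83 and -1.21 ± 0.77. These 3 are among the 4 genes with few reads and a near-identical copy on chromosome 1. mt-Cytb differed by 0.58 ± 0.63 (SE, edgeR adjusted p = 0.801). The in vitro libraries lay above all in vivo libraries for 5 members (Atp5c1, Ndufa1, Ndufa4, Ndufs4 and Sdhd), where 9.37% of genes did, and below them for 2, Atp5k among them, where 6.81% did.

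Other genes of the pathway were also not called by edgeR. Of 41 tested assembly factors outside the set, 14 electron carrier and ubiquinone genes, 21 or 25 genes of mitochondrial genome expression, 13 nuclear regulators, 18 genes of the tricarboxylic acid cycle and 7 genes of ATP export, edgeR called 0 in each of the 6 comparisons. The median log2 difference of the assembly factors was -2.02 in the primordial and 1.59 in the primary culture comparison, and -0.08 in MII oocytes. Their interaction had 12 genes with an unadjusted p under 0.05, against 11.5% of all genes, and no other list had more than 4 in a comparison. DESeq2 called 0 to 3 genes of a list in a comparison, where it called 1.59 to 5.3% of all genes. The most were 3 in mitochondrial genome expression between stages in vivo (Fastkd5, Mterf4 and Polg). In MII oocytes it called only Gabpb1, a partner of the regulator GABPA. These genes were named after their values were seen.

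Short sequence motifs that the rule did not use were found in a part of the promoters of the nuclear members. RefSeq windows of 250 bases before to 50 after the start (GRCm38) were matched for 74 of 94 nuclear members, giving 79 promoters, and were searched on both strands. The core of the nuclear respiratory factor 1 motif, GCGCATGC, stood in 15.2% of them and in 2.71% of all 32851 promoters. The ETS motif of GABPA, CCGGAAG, stood in 24.1% against 8.86%, and the YY1 motif, AAGATGGC, in 13.9% against 2.75%. At least 1 of the 3 motifs was present in 35 promoters, 7 held 2 or more, and hits of different motifs overlapped in 0. Among the members described above, Ndufs3, Cox8a and Cox6b1 held CCGGAAG, Ndufaf4, Ndufaf5 and Atp5g2 held GCGCATGC, and Atp5pb, Ndufs4 and Ndufs7 held AAGATGGC. The promoters of all genes were not matched to those of the members in base composition. A match describes the letters of the window and no binding was measured.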

How the data were processed

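RNA from 18 samples was sequenced and, per the labels and the study's methods, the authors used Trim Galore 0.4.1 for trimming, TopHat2 for alignment to mm10 and featureCounts for counting per gene. They deposited raw counts per gene and a table of TPM (a unit scaled by gene length and library size). The strand and multiple-mapping settings are not given in the sources used here. No sample column was left unmapped. The members and all gene lists were chosen with earlier results of these data known.

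Counts were tested with edgeR 4.0.16 (R 4.3.3; quasi-likelihood, TMM scaling, at least 10 reads in total, Benjamini-Hochberg adjustment over all genes tested), in a model of the 12 microdissected libraries and another of the 6 MII libraries. DESeq2 1.42.0, limma 3.58.1 on log2(TPM + 1) and log2(TPM + 0.1), other scalings, other filters, a replicate block and the omission of each library were the alternatives. Replicates are separate samples by the labels, with pooled RNA, and p-values measure the spread between these samples. The standard errors (SE) given with edgeR are the size of the log2 difference divided by the square root of the test's F value. A count of 3 reads per library served as the floor for genes at 0, which covers counting error only. Mitochondrial and nuclear shares are percent of all gene counts. Copies were sought with BLAST 2.17.0 among GENCODE M21 transcripts, in which 12 members share exon bases with a gene on the same strand and 33 with a gene on the opposite strand. The edgeR step was run on simulated counts whose spread was set lower than that of either set of libraries. That run does not show how the test behaves on these data.

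The genes named were, by rule, all members called, every mitochondrial gene, the 2 highest and the 2 lowest of each complex by mean TPM over all libraries, the 3 with the smallest p and no overlap in each culture comparison, the isoform families, Ndufs7 and Uqcrfs1. A member that this rule names is counted among the members and not reported here by name. Other members that are named were chosen after their values were seen.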

Additional observations from a re-analysis of the deposited data

Results flagged for a closer look

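Atp5pb had fitted culture differences of opposite sign at the primordial and the primary stage, and edgeR did not call their interaction. It was picked because its libraries lay apart in opposite directions, and the share of all genes that do so was not counted. Its exons share bases with Wdr77 and Gm42890 on the opposite strand, and the strand setting is not given in the sources used here. Its fitted log2 difference, in vitro against in vivo, was -9.14 at the primordial stage, where it had 0 reads in all 3 in vitro libraries so that the value depends on the prior count, and 3.65 at the primary stage. Every primordial in vitro library lay below and every primary in vitro library above the in vivo libraries. The interaction of 12.79 had an adjusted p of 0.302 by edgeR and 0.00284 by DESeq2. Its reads were 165, 16 and 28 against 0, 0 and 0 in primordial oocytes and 0, 6 and 11 against 121, 19 and 193 in primary oocytes.

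Ndufa4, picked in the same way, had a log2 difference of -2.47 at the primordial stage and 1.48 in MII oocytes, with all libraries of the growth conditions apart in opposite directions. The stages were sequenced with different kits, and this difference was not tested.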

How the results depend on the processing

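By edgeR no member was called in any of the 6 comparisons under either scaling or filter that was tried. DESeq2 called 3 members in the primordial culture comparison, 3 in the interaction, 2 between stages in vivo and 1 between stages in vitro. Over all genes it called 5.3, 3.64, 3.66 and 2.96% in these comparisons. Leaving out single libraries gave 0 to 1 members called in MII oocytes. The 1 was Atp5o without MII in vivo replicate 1 (log2 difference 3.27, adjusted p = 0.0363), where 2.25% of all genes were called, a gene with 270, 19 and 30 reads in vivo and 387, 143 and 177 in vitro. The median log2 value of the members in the interaction was 0.59, rose to 2.19 with limma on log2(TPM + 0.1), and ranged from 0.50 to 2.34 when single libraries were left out, the highest without primary in vivo replicate 2, and the median over all genes was above that of the members there, as it was with every library (0.91). The in vitro minus in vivo difference of the mitochondrial share was 0.000537 and 0.00554 percentage points of counts in primordial and primary oocytes, and 0.0021 and 0.0148 of the TPM sum. The first fell to 5.9e-05 without primordial in vitro replicate 3 and rose to 0.000991 without primordial in vitro replicate 1, and the second was 0.00204 without primary in vitro replicate 3. Ndufs7 turned from 2.38 to -2.46 in primordial oocytes without in vitro replicate 3, within a range of -2.46 to 4.10. The causes were not tested. Of 206 values for named members, 196 kept their direction and side of the threshold, 9 passed it under DESeq2 and 1 turned. The list took in every member that DESeq2 called, so the 9 were set by that choice. The settings shared most of their libraries, so this tally is no independent check.

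Replicate numbers are shared between the groups, and the labels do not say whether equal numbers pair the samples. The correlation of same-numbered deviations was -0.027 to 0.016 and that of differently numbered ones -0.038 to 0.032. With 3 libraries per group these values cannot show whether samples were paired. With the replicate number as a block, 0 members were called in each of the 6 comparisons. Over all genes that fit called 85 of 17144 in MII oocytes, against 60 without the block.

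Depth and the spread between libraries limit these results. A biological coefficient of variation of 2.02 leaves changes of many fold below the threshold in microdissected oocytes, and values at or below 3 reads are at the floor. With genes at 0 set to their bounds, the median log2 difference of the members was 0.01, 0.51 and 0.02 at the primordial, primary and MII stages.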
